A study of Mus musculus with 18 samples.

Results

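The RNA-seq tables of mouse embryonic stem cells (ESCs) and epiblast-like cells (EpiLCs) hold 6 features described here, namely ENSMUSG00000119584, ENSMUSG00002076161, Gm15564, Mir6236, Lars2 and mt-Tp. They were chosen because they had the largest increases in ESCs exposed to Δ9-tetrahydrocannabinol (Δ9-THC), the main psychoactive compound of cannabis. All 6 were measured in both tables, among 13104 genes in ESCs and 13717 in EpiLCs. Because the ESC comparison chose them, their ESC values are a description with no test, and the EpiLC comparison was not used in the choice.

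Poly(A)-selected RNA was sequenced from 12 libraries in 4 groups of 3 biological repeats, which were ESCs with vehicle, ESCs with 100 nM Δ9-THC, EpiLCs with vehicle and EpiLCs with 100 nM Δ9-THC. All cells derived from ESCs carrying Blimp1::mVenus and Stella::ECFP reporters, exposure lasted 48 h in each state, and the vehicle was ethanol. ESCs were grown with LIF and inhibitors of MEK and GSK3, which hold the naive state, and EpiLCs were derived from them with activin A and basic FGF, with exposure carried on from the ESC state. The study names 2 library kits, used one or the other. Whether both were used for these 12 libraries, and the kit of each, is not given in the sources used here.

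Adjusted counts summed to between 23427551 and 32096698 per library. Of the 9 markers of naive pluripotency fixed for a check of the labels, 9 were lower in vehicle EpiLCs than in vehicle ESCs, and 5 of the 5 formative or primed markers measured in both tables were higher, while Fgf5 was in the EpiLC table only. Of 13 markers of endoderm, mesoderm, neural and germ cells, 7 were measured in each table. Their summed level was 81.9 to 88.2 CPM (counts per 1000000 counts) with vehicle and 89.3 to 95.3 CPM with Δ9-THC in ESCs, against 57.0 to 62.1 CPM and 58.0 to 65.2 CPM in EpiLCs, and Foxa2, Gata6, Sox17 and Sox7 were in neither table. In both tables the libraries that share a replicate number stood apart in one respect. Their deviations from the group means, correlated over all genes, ran opposite, with coefficients of -0.987 to -0.977 in ESCs and -0.985 to -0.979 in EpiLCs. Thus the 3 libraries of one exposure do not vary independently of the 3 of the other, and tests that treat the 6 libraries as independent have less information than their number implies. The counts were adjusted with ComBat-seq before deposit, and whether that adjustment gave the mirrored deviations was not tested, since unadjusted counts were not analysed here.

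Ribosomal RNA makes up most of the RNA of a growing cell but has no poly(A) tail, so poly(A) selection removes most of it. Fragments with similarity to ribosomal RNA lie in some annotated genes, and reads of ribosomal origin can be counted there. Mitochondria make their own rRNAs and tRNAs. Their tRNAs are charged by aminoacyl-tRNA synthetases encoded by nuclear genes, of which Lars2 charges mitochondrial tRNA with leucine. No ribosomal RNA sequence was at hand here, so whether reads of these features are ribosomal was not tested.

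Of the 6 features, 4 are in the annotation used (GENCODE release 21 of the mouse, GRCm38), and the other 2 appear by Ensembl identifier only. Lars2 (ENSMUSG00000035202) is a protein-coding gene on the + strand at chr9:123366927-123462666. Gm15564 (ENSMUSG00000086324) is an antisense RNA gene on the - strand at chr16:35966752-35983230. It overlaps the spans of Parp9 and Kpna1 and shares 0 exonic bases with other genes. Mir6236 (ENSMUSG00000098973) is a miRNA gene of 123 bases on the + strand at chr9:110281287-110281409, overlapping no other gene. mt-Tp (ENSMUSG00000064372) is the 67-base gene of the mitochondrial proline tRNA on the - strand at chrM:15356-15422, with 0 bases between it and mt-Tt, the threonine tRNA gene. The build that the counts rest on is named both as mm10 and as GRCm39, so these positions describe the genes only.

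Lars2 and Gm15564, on different chromosomes, hold an identical run of 52 bases, which is why their sequence is shown. In the Lars2 transcript that holds it, it spans bases 3278 to 3329 of 3894, in the 3′ UTR (chr9:123462048-123462099), and in that of Gm15564 bases 179 to 230 of 402, of which all but 1 lie in exon 2. Among 141767 annotated transcripts, no other gene held the whole run. The first 30 bases of the run within that exon (chr16:35981766-35981795, - strand, and chr9:123462049-123462078, + strand, GRCm38) read the same in both.
Gm15564 and Lars2: AATTCACCAAGCGTTGGATTGTTCACCCAC
Windows of 30 bases tied Lars2 and Gm15564 to 1 further gene, AA474408, on the - strand at chr7:110057987-110061325. It shared 29 such windows with Lars2 and 7 with Gm15564. Sequence wholly within the run cannot be assigned to Lars2 or Gm15564. Reads were pairs of 150 bases, longer than the run, and only uniquely mapped reads were counted. How many counts the run bears on was not tested.

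The mature miRNA of Mir6236 and the tRNA gene mt-Tp are shown because both are far shorter than most mRNAs. The miRNA, from RefSeq (chr9:110281353-110281371, + strand, GRCm38.p6), has its seed, bases 2 to 8, in capitals, and the tRNA gene has its proline anticodon in capitals, found as the one TGG in a loop closed by a perfect 5-base stem.
mmu-miR-6236: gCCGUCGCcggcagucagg
mt-Tp: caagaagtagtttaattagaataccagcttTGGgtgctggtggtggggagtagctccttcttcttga
Of 1738 mature mouse miRNAs in the table, 1 had this seed, miR-6236 itself. The 19-base sequence lies at bases 67 to 85 of the 123-base gene, and counts for Mir6236 come from reads over the gene in mRNA libraries, which do not measure the mature miRNA. The mt-Tp gene, at 67 bases, is shorter than a read of 150 bases. Whether its counts come from the tRNA itself was not tested.

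ENSMUSG00000119584 held nearly all counts of the 6 features, from 91.9% to 98.8% per library. In ESCs its adjusted counts were 196034, 128344 and 179414 in the vehicle libraries and 631134, 973258 and 593910 in the Δ9-THC libraries. As a share of all counts this was 0.611%, 0.477% and 0.639% with vehicle and 2.60%, 3.19% and 2.46% with Δ9-THC. It was the gene with the most counts in each of the 3 Δ9-THC libraries and the fifth in each vehicle library, and the groups did not overlap. Scaled for library size, its level was 5663 ± 869 CPM (SD, n = 3) with vehicle and 27969 ± 4054 CPM (SD, n = 3) with Δ9-THC, and the log2 fold change was 2.30 ± 0.15 (SE) (4.94-fold). This was the largest fitted increase of the 13104 genes.

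In EpiLCs the level of ENSMUSG00000119584 differed 10.01-fold between the lowest and the highest library, and exposure did not sort the libraries. Its counts were 223464, 703563 and 908270 in vehicle libraries 1, 2 and 3 and 1036770, 450358 and 119596 in Δ9-THC libraries 1, 2 and 3. The replicate number that was lowest with vehicle was highest with Δ9-THC, and the reverse, as in the mirrored deviations of the adjusted counts over all genes. The level was 23329 ± 16297 CPM with vehicle and 20721 ± 18371 CPM with Δ9-THC (SD, n = 3 each), and the log2 fold change was -0.17 ± 0.86 (SE), with an adjusted p of 0.948 in edgeR's quasi-likelihood test. This SE was the largest of the 6 features, so the EpiLC value of ENSMUSG00000119584 is the least precise.

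**Figure D1:**
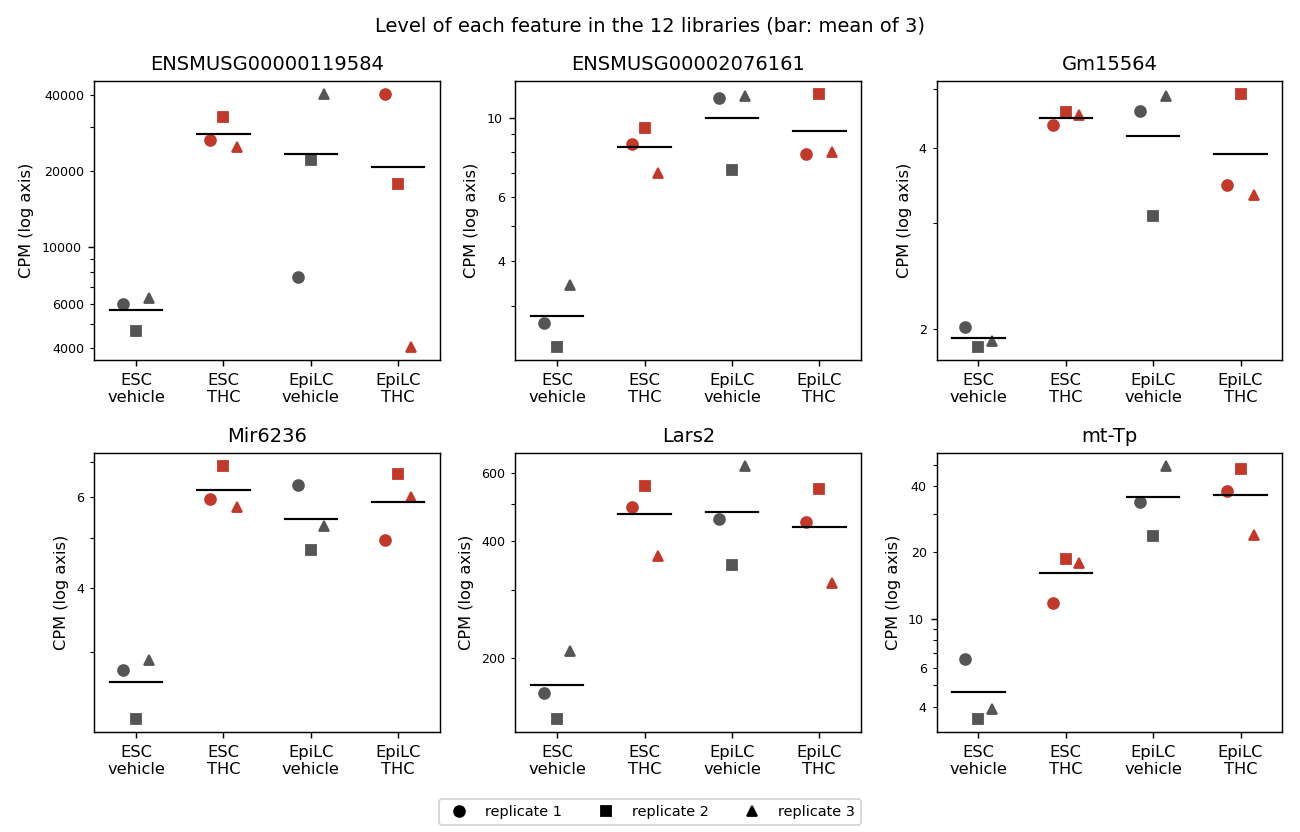
Level of each of the 6 features in CPM (log axes) in the 12 libraries, with 1 symbol per replicate number, grey for vehicle and red for Δ9-THC, and a bar at the mean of 3 libraries. In ESCs the 3 Δ9-THC libraries sit above the 3 vehicle libraries in each panel, and in EpiLCs the exposures overlap in each panel.

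The 6 features together took 0.594% ± 0.090 of all counts in vehicle ESCs and 2.80% ± 0.39 in Δ9-THC ESCs (SD, n = 3 each), a difference of 2.21 percentage points. The single libraries had 0.629%, 0.492% and 0.661% with vehicle and 2.65%, 3.25% and 2.50% with Δ9-THC. In EpiLCs the shares were 0.831%, 2.23% and 3.94% with vehicle and 4.02%, 1.86% and 0.454% with Δ9-THC. Within replicate numbers 1, 2 and 3 the EpiLC share thus differed by 3.19, -0.37 and -3.49 percentage points, while the mean of the 2 libraries of a number stayed between 2.04% and 2.43% in these adjusted counts. The EpiLC means were 2.34% ± 1.56 with vehicle and 2.11% ± 1.80 with Δ9-THC, which did not differ beyond the spread between libraries (difference -0.22 percentage points, two-sided exact permutation p = 0.80, n = 3 per group, where the smallest p possible is 0.10). Wilson 95% intervals of the single shares were at most 0.0079 percentage points to each side and cover counting error only. Without ENSMUSG00000119584 the other 5 features took between 0.0151% and 0.0673% of counts per library.

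**Figure D2:**
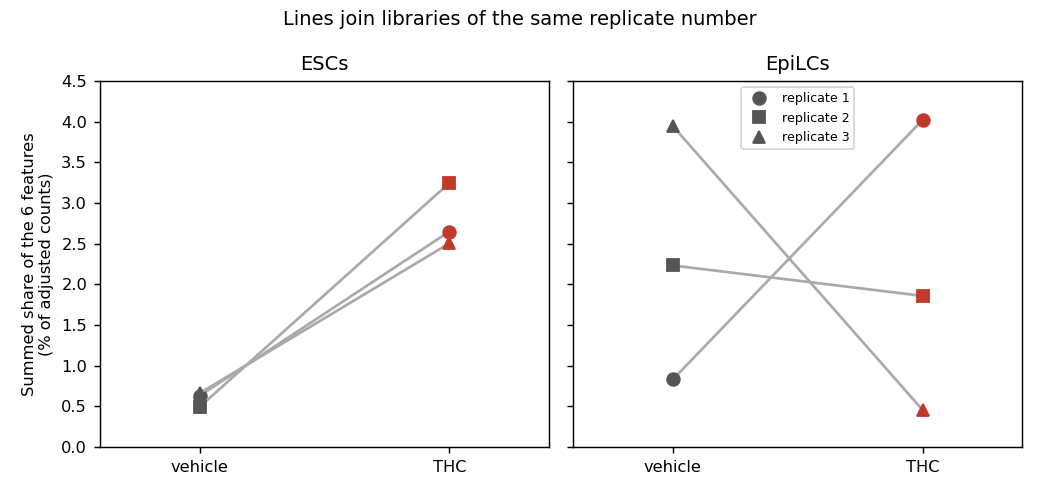
Summed share of the 6 features in percent of adjusted counts (y axis, from 0) with vehicle and Δ9-THC, in ESCs (left) and EpiLCs (right), with lines joining libraries of the same replicate number. The 3 ESC lines rise from between 0.492% and 0.661% to between 2.50% and 3.25%, and the EpiLC lines cross, one of them rising to 4.02% and one falling to 0.454%.

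Lars2, the mitochondrial leucyl-tRNA synthetase gene, was the most abundant of the other 5 features. Its counts in ESCs were 5326, 3806 and 5919 with vehicle and 11743, 16612 and 8725 with Δ9-THC. All Δ9-THC libraries were above all vehicle libraries, at 471 ± 97 CPM against 170 ± 36 CPM (SD, n = 3 each), and its fitted log2 fold change was 1.47 ± 0.20 (SE). In EpiLCs its counts were 13335, 11043 and 14173 with vehicle and 11493, 13900 and 9276 with Δ9-THC. Here the groups overlapped, at 477 ± 141 and 436 ± 117 CPM, with a log2 fold change of -0.13 ± 0.27 (SE) and an edgeR adjusted p of 0.858.

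The level of Lars2 in vehicle EpiLCs was 2.81-fold that in vehicle ESCs and 1.01-fold that in Δ9-THC ESCs. The 2 tables were adjusted separately, so levels set across them are a description. AA474408, the gene with windows in common with Lars2, had 21 to 32 counts in each ESC library, with a log2 fold change of 0.32 ± 0.17 (SE, edgeR adjusted p = 0.349). The 16 other mitochondrial aminoacyl-tRNA synthetases, which charge tRNAs for other amino acids, were measured in both tables. In ESCs 7 were higher and 9 lower with Δ9-THC, and the median log2 fold change was -0.03, against 0.00406 over all genes. Of these 1 was called by edgeR and by DESeq2, Vars2, lower, beside 6.91% of all genes called by edgeR in either direction. Vars2 was not called by edgeR with any 1 ESC library left out. In EpiLCs 5 were higher and 11 lower, 0 were called by edgeR or DESeq2 (3 had an unadjusted p under 0.05, beside 15.1% of all genes), and the median was -0.07 against 0.00305 over all genes. Iars2, for isoleucine, had the highest level of this list, at 107 ± 1.7 CPM with vehicle and 107 ± 1.3 CPM with Δ9-THC in ESCs. Tars2, for threonine, had 64.1 ± 1.7 and 62.6 ± 1.6 CPM there (SD, n = 3 each). Fars2, for phenylalanine, differed most in EpiLCs, by -0.26 ± 0.07 (SE) on the log2 scale (edgeR adjusted p = 0.199).

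mt-Tp, the proline tRNA gene of the mitochondrial genome, had the second largest fitted increase in ESCs. Its counts were 216, 96 and 111 with vehicle and 281, 556 and 428 with Δ9-THC. The groups did not overlap in CPM, at 4.67 ± 1.67 and 16.1 ± 3.8 (SD, n = 3 each), and the log2 fold change was 1.77 ± 0.27 (SE). In EpiLCs the counts were 982, 756 and 1117 with vehicle and 976, 1215 and 713 with Δ9-THC. There the levels were 35.6 ± 12.9 and 36.6 ± 11.9 CPM and overlapped, with a log2 fold change of 0.04 ± 0.33 (SE, edgeR adjusted p = 0.964). It was the member that differed most between cell types with vehicle, 7.64-fold higher in EpiLCs, and its EpiLC libraries were above those of the Δ9-THC ESCs too.

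Of the 23 other rRNA and tRNA genes of the mitochondrial genome annotated, 2 were measured in each table, the rRNAs mt-Rnr1 and mt-Rnr2. In ESCs mt-Rnr1 rose from 143 ± 15 to 197 ± 20 CPM (SD, n = 3 each), a log2 fold change of 0.47 ± 0.09 (SE, edgeR adjusted p = 0.0420), and mt-Rnr2 had 725 ± 53 and 809 ± 60 CPM (0.16 ± 0.07, adjusted p = 0.197). Leaving out any 1 ESC library left 0 or 1 of 13104 genes called, mt-Rnr1 not among them. In EpiLCs the edgeR adjusted p was 0.974 for mt-Rnr1 and 0.657 for mt-Rnr2. Of the 13 protein-coding genes of that genome, 10 were measured. In ESCs 8 were higher with Δ9-THC, and the median log2 fold change was 0.11. Of these edgeR called 1, mt-Nd6, beside 6.91% of all genes called in either direction, and DESeq2 called 2, mt-Co3 and mt-Nd6. Like mt-Rnr1, mt-Nd6 was not called by edgeR with any 1 ESC library left out. In EpiLCs 10 were higher, with a median of 0.18. There 0 were called by edgeR or DESeq2 (0 had an unadjusted p under 0.05, beside 15.1% of all genes). mt-Co1, of cytochrome c oxidase, had 8935 ± 788 and 9399 ± 814 CPM in ESCs, and mt-Cytb, of complex III, had 2344 ± 89 and 2465 ± 97 CPM (SD, n = 3 each). mt-Nd2, of complex I, differed most in EpiLCs, by 0.53 ± 0.38 (SE) on the log2 scale (edgeR adjusted p = 0.555).

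Mir6236, Gm15564 and ENSMUSG00002076161 had between 51 and 330 counts in each library, where counting error is larger than for Lars2. Mir6236 had 91, 61 and 82 counts in vehicle ESCs and 142, 206 and 137 in Δ9-THC ESCs. Gm15564 had 66, 51 and 54 counts against 104, 137 and 108. ENSMUSG00002076161 had 88, 63 and 97 counts against 202, 279 and 167. In all 3 the Δ9-THC libraries were above the vehicle libraries. Log2 fold changes in ESCs were 1.24 ± 0.12 for Mir6236, 1.22 ± 0.08 for Gm15564 and 1.57 ± 0.17 for ENSMUSG00002076161 (SE). Gm15564 varied least within ESC groups, at 1.93 ± 0.08 CPM with vehicle and 4.49 ± 0.12 CPM with Δ9-THC (SD, n = 3 each). At 51 to 137 adjusted counts per library, this spread is smaller than counting error would give. Neither this SD nor the SE of Gm15564 is therefore read as precision.

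In EpiLCs the exposures overlapped for each of these 3 features. Mir6236 had 184, 151 and 119 counts with vehicle and 127, 169 and 178 with Δ9-THC. Gm15564 had 134, 98 and 110 counts with vehicle and 89, 125 and 99 with Δ9-THC. ENSMUSG00002076161 had 330, 227 and 259 counts with vehicle and 203, 296 and 238 with Δ9-THC. Log2 fold changes were 0.11 ± 0.16, -0.09 ± 0.23 and -0.11 ± 0.23 (SE), with edgeR adjusted p of 0.785, 0.883 and 0.858 in the same order.

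Counted over the 6 features, all 3 Δ9-THC libraries lay above all 3 vehicle libraries for 6 of 6 in ESCs. That held for 16.7% of all genes tested in ESCs, and 32.6% had no overlap in either direction, a background from which nothing is read, since this comparison chose the features. Among the 8 largest fitted increases in ESCs, Hist1h1d, a linker histone gene, stood in place 5 at 1.31, between Lars2 and Mir6236, and Gm12031 in place 8 at 1.17, just below Gm15564. Hist1h1d and Gm12031 had low levels, at 0.59 and 0.67 CPM with vehicle and 1.46 and 1.52 CPM with Δ9-THC. In EpiLCs 0 of 6 features were called at an edgeR adjusted p of 0.05, against 0% of all 13717 genes, and 0 of 6 had an unadjusted p under 0.05, against 15.1% of all genes (2069). DESeq2 called 87 genes in EpiLCs, none of them among the 6. The groups did not overlap for 0 of 6 features in EpiLCs, against 21.8% of all genes. Of the 6, 2 were higher and 4 lower, and the median of their log2 fold changes was -0.10 beside 0.00305 for all genes tested. An interaction between cell type and exposure was not tested, because it would use the ESC comparison again.

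**Figure D3:**
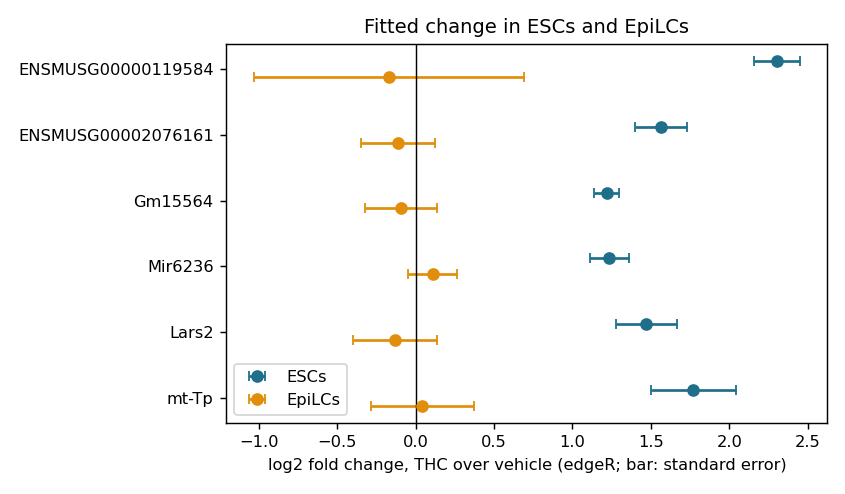
Log2 fold change of Δ9-THC over vehicle (x axis) for each feature in ESCs (blue) and EpiLCs (orange), with bars of 1 standard error from edgeR. The ESC values run from 1.22 to 2.30 and chose the features, and the EpiLC values run from -0.17 to 0.11, each within 1 standard error of 0.

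The order of the 4 groups by mean level differed between features. Vehicle ESCs were lowest for all 6. For Lars2, Gm15564 and Mir6236 the other 3 groups overlapped with their neighbours in the order and all lay above vehicle ESCs. For ENSMUSG00002076161, Δ9-THC ESCs (8.27 CPM), Δ9-THC EpiLCs (9.20 CPM) and vehicle EpiLCs (9.98 CPM) followed, with overlap between neighbours. mt-Tp was higher in both EpiLC groups than in Δ9-THC ESCs, with no overlap, and ENSMUSG00000119584 overlapped at each step of the order.

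The features did not keep fixed proportions to ENSMUSG00000119584. For each Lars2 count there were 36.8, 33.7 and 30.3 counts of ENSMUSG00000119584 in vehicle ESCs and 53.7, 58.6 and 68.1 in Δ9-THC ESCs. In EpiLCs there were 16.8, 63.7 and 64.1 with vehicle and 90.2, 32.4 and 12.9 with Δ9-THC, a 6.997-fold range. Measured against Lars2 instead, a choice made after the values were seen, the proportions had a narrower range in each cell type, except for mt-Tp in ESCs (2.62-fold to Lars2 and 2.47-fold to ENSMUSG00000119584). The denominators themselves differ in range, since in EpiLCs the CPM of ENSMUSG00000119584 spanned 10.01-fold and that of Lars2 2.00-fold. ENSMUSG00002076161 had 16.4 to 19.1 counts per 1000 Lars2 counts in ESCs and 17.7 to 25.7 in EpiLCs. Gm15564 had 8.25 to 13.4 and 7.74 to 10.7, and Mir6236 had 12.1 to 17.1 and 8.40 to 19.2. mt-Tp had 18.8 to 49.1 counts per 1000 Lars2 counts in ESCs and 68.5 to 87.4 in EpiLCs, ranges that do not meet.

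**Figure D4:**
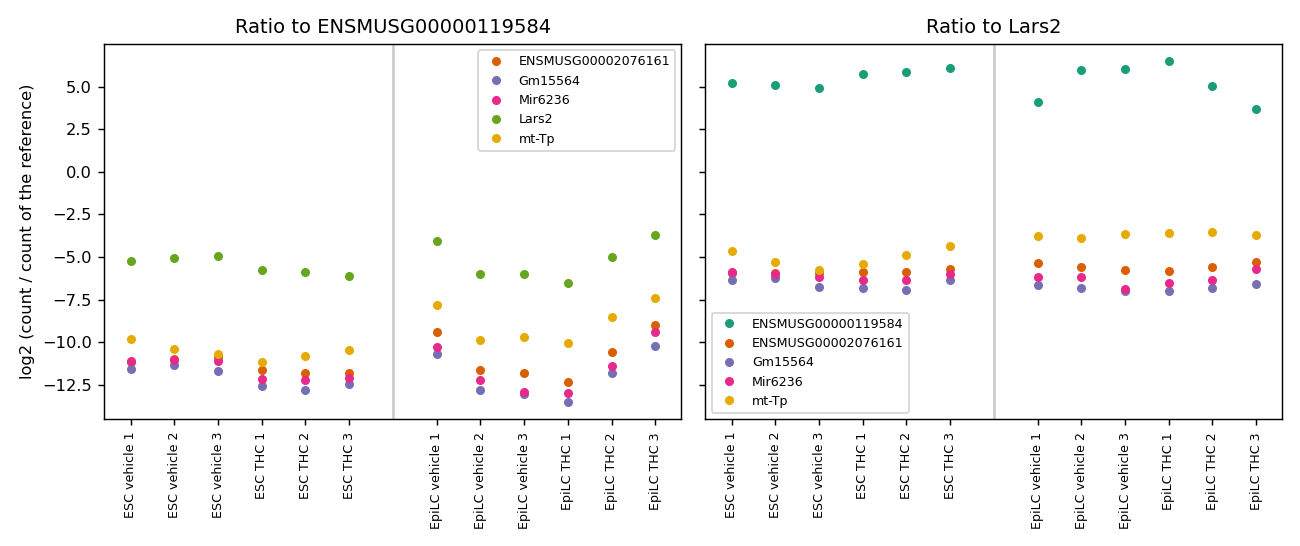
Log2 ratio of each feature's count to that of ENSMUSG00000119584 (left) and of Lars2 (right) in the 6 ESC and 6 EpiLC libraries (x axis). On the left the EpiLC ratios range up to 12.15-fold, and all have the same denominator, so moving together is not read as covariation. On the right ENSMUSG00000119584 spans 6.997-fold in EpiLCs while each other feature stays within 2.62-fold in each cell type.

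Correlations of log2 CPM in EpiLCs are given as a description, since the 6 libraries mirror each other by number and are not independent. With ENSMUSG00000119584, Pearson's r was 0.60 for Lars2, 0.57 for mt-Tp, 0.14 for Gm15564, 0.03 for ENSMUSG00002076161 and -0.62 for Mir6236. Spearman's rho was 0.37, 0.43, 0.09, -0.20 and -0.60 in the same order. Without the 2 libraries farthest from the median of ENSMUSG00000119584, r was 0.27, 0.24, -0.05, -0.08 and -0.56. Among the other 5 features r over the 6 EpiLC libraries ran from 0.19, for Mir6236 with Lars2, to 0.99, for ENSMUSG00002076161 with Gm15564, and was 0.97 for Lars2 with mt-Tp. In ESCs the libraries fall into the 2 exposures, so no pooled r is given. Taken as deviations from the group means in ESCs, which are mirrored by number as well, r with ENSMUSG00000119584 was 0.99 for Mir6236, 0.88 for ENSMUSG00002076161, 0.87 for Lars2, 0.57 for Gm15564 and 0.44 for mt-Tp. The same measure in EpiLCs was -0.60 for Mir6236 and 0.59 for both Lars2 and mt-Tp.

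Genes most like ENSMUSG00000119584 were ranked by Pearson's r of log2 CPM centred within each cell type, over the 12 libraries and 12409 genes found in both tables. The 10 highest outside the 6 features were Ppp1r14d (0.94), Ttc1 (0.93), Platr27 (0.92), Gm3333 (0.92), Nmnat2 (0.91), Vwa3b (0.91), Ndufaf7 (0.91), Rab2a (0.90), Brip1 (0.90) and Fkbpl (0.90). Their log2 fold changes in ESCs were small beside 2.30 for ENSMUSG00000119584, from 0.06 for Nmnat2 to 0.42 for Ppp1r14d. The other members ranked lower, Lars2 at 67, mt-Tp at 113, Gm15564 at 305, ENSMUSG00002076161 at 341 and Mir6236 at 713. Ranked by likeness to Lars2, again a choice made after the values were seen, Hist1h1d came first (r = 0.98), ENSMUSG00002076161 second (0.97) and Gm15564 in place 10 (0.93), with mt-Tp at 27, Mir6236 at 34 and ENSMUSG00000119584 at 104. In both rankings r includes the difference between exposures that chose the features.

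Genes annotated to classes of small noncoding RNA, mostly small nucleolar RNAs with some miRNA genes, were set beside the 6 features. Their counts come from reads over the genes in poly(A)-selected libraries, regardless of strand. Whether these reads come from RNA without a poly(A) tail was not tested. Of 13 genes of these classes measured in ESCs, 13 were higher with Δ9-THC. An unadjusted p under 0.05 was found by edgeR for 5, beside 28.7% of all genes. By edgeR's adjusted p 0 were called, beside 3.37% of all genes called higher and 6.91% called in either direction. The summed level of the 13 was 15.6 to 18.9 CPM in vehicle libraries and 20.1 to 24.6 CPM in Δ9-THC libraries. Their median log2 fold change was 0.41. DESeq2 gave an adjusted p for all but 12 of the 13 in ESCs and all but 16 of the 19 in EpiLCs, and called 0 of these. In EpiLCs 4 of 19 were higher and 15 lower, 0 called by edgeR (8 with an unadjusted p under 0.05, beside 15.1% of all genes), with sums of 41.8 to 50.7 CPM and 38.1 to 46.4 CPM and a median of -0.29. Snora17, a small nucleolar RNA of the H/ACA class, had 3.89 ± 1.02 and 5.12 ± 1.25 CPM in ESCs (SD, n = 3 each). Gm23201 had 1.77 ± 0.64 and 2.74 ± 0.75 CPM there, and Snord104 differed most in EpiLCs, by 0.96 ± 0.49 (SE) on the log2 scale (edgeR adjusted p = 0.419). The part of RNA without a poly(A) tail in the levels of the 6 features was not tested.

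Replication-dependent histone mRNAs end in a stem-loop in place of a poly(A) tail. In ESCs 8 of 11 measured were higher with Δ9-THC. Of these edgeR called 2, Hist1h1d and Hist1h3e, beside 3.37% of all genes called higher. Both had low levels, at 0.59 and 1.46 CPM for Hist1h1d and 0.67 and 1.37 CPM for Hist1h3e with vehicle and Δ9-THC. For Hist1h3e the SDs were 0.008 and 0.021 CPM, smaller than counting error would give at such levels, and are not read as precision. Neither gene was called by edgeR with any 1 ESC library left out. Summed levels of the list were 13.55 to 15.03 CPM with vehicle and 16.7 to 18.3 CPM with Δ9-THC. The median log2 fold change was 0.42. In EpiLCs 9 of 18 were higher and 0 called by edgeR (0 with an unadjusted p under 0.05, beside 15.1% of all genes). The sums were 27.2 to 41.0 CPM with vehicle and 27.0 to 40.6 CPM with Δ9-THC. DESeq2 gave no adjusted p for 10 of the 11 and 14 of the 18, and called 0 of the others. The most abundant, Hist1h2bc, had 4.66 ± 0.34 and 4.17 ± 0.35 CPM in ESCs, and Hist1h4i had 1.65 ± 0.16 and 1.64 ± 0.20 CPM (SD, n = 3 each). Hist1h2bj differed most in EpiLCs, by 0.61 ± 0.37 (SE) on the log2 scale (edgeR adjusted p = 0.486).

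RNA polymerase I, which transcribes the ribosomal RNA genes, and its factors numbered 15, all measured. In ESCs 8 were higher and 7 lower with Δ9-THC, with a median of 0.03 on the log2 scale. There edgeR called Twistnb higher and Znrd1 lower, beside 6.91% of all genes, while DESeq2 called Taf1d and Twistnb higher and 0 lower. Neither Twistnb nor Znrd1 was called by edgeR with any 1 ESC library left out. In EpiLCs 5 were higher and 10 lower, 0 called by edgeR or DESeq2 (6 with an unadjusted p under 0.05, beside 15.1% of all genes), with a median of -0.07. Ubtf, which binds the ribosomal RNA promoter, had 306 ± 12 and 312 ± 12 CPM in ESCs, and Rrn3, which brings the polymerase to it, had 227 ± 8.1 and 242 ± 7.8 CPM (SD, n = 3 each). Taf1a differed most in EpiLCs, by 0.35 ± 0.12 (SE) on the log2 scale (edgeR adjusted p = 0.270).

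**Figure D5:**
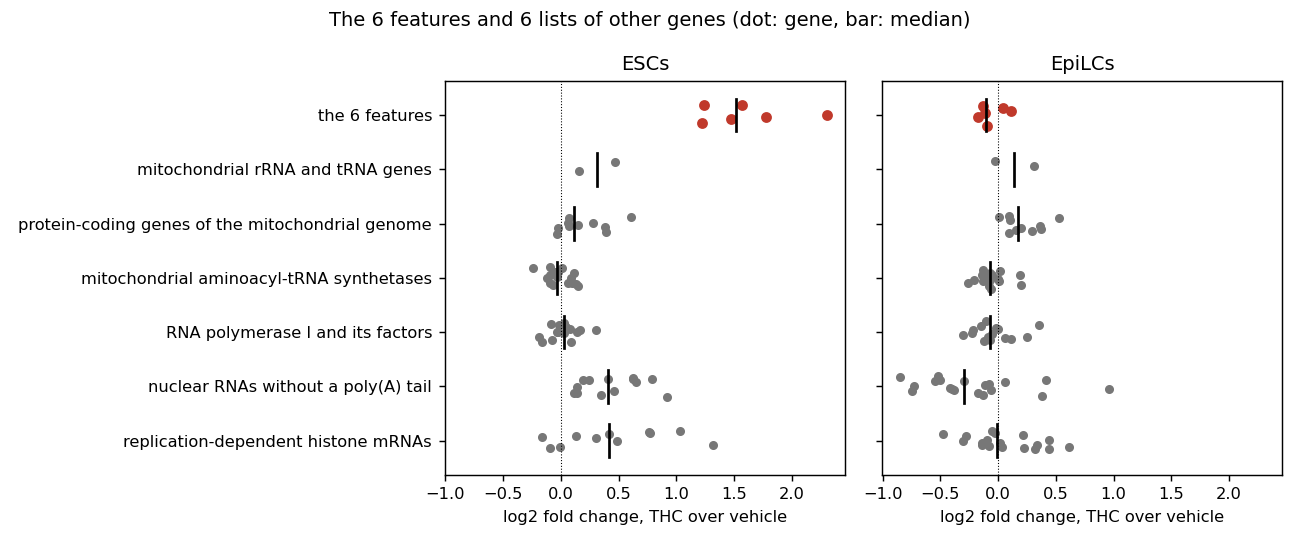
Log2 fold change of Δ9-THC over vehicle (x axis) for the 6 features (red) and the genes of 6 lists (grey, 1 dot per gene, bar at the median) in ESCs (left) and EpiLCs (right). In ESCs the features lie between 1.22 and 2.30 by choice, and the medians of the lists lie between -0.03 and 0.42. The list labelled as nuclear RNAs without a poly(A) tail was taken by annotated class and holds miRNA genes too.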

How the data were processed

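Per the labels and the study's methods, the authors used STAR to align reads that map to 1 place, HTSeq to count them by gene regardless of strand, and ComBat-seq to adjust the counts after genes with low counts were removed. Each cell type has 1 deposited table of adjusted counts, which are whole numbers. Which batches entered ComBat-seq is not given in the sources used here. The groups come from the labels, and 0 columns were left over. Libraries of primordial germ cell-like cells were not analysed here.

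In each cell type, Δ9-THC was set against vehicle in edgeR 4.0.16 (TMM, quasi-likelihood test, R 4.3.3) on genes with more than 10 counts in total, with Benjamini-Hochberg adjustment at 0.05 over all genes. CPM values were scaled by TMM, and shares by the plain total. DESeq2 1.42.0 was an alternative. On simulated data with 200 changed genes of 1 log2 unit, edgeR recovered 96.5% in the ESC table and 98% in the EpiLC table. The simulated libraries varied independently, with the same setting of spread for all genes. The libraries here mirror each other by number, so these rates check the code only and do not carry over to the data. Of 13104 ESC and 13717 EpiLC genes, 13085 and 13698 were in the annotation.

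The 6 features, the gene lists and the rules were chosen with earlier results of these data known. Besides the 6, the text names the 10 genes most like ENSMUSG00000119584, and from each list the 2 with the highest mean CPM and the 1 with the largest log2 fold change in EpiLCs. Hist1h1d, Gm12031, AA474408, Hist1h3e, mt-Nd6, mt-Co3, Vars2, Twistnb, Taf1d and Znrd1 were added after their values were seen. Alternatives covered scaling, filters, a replicate block, DESeq2, a fit of 12 libraries and leaving out each library.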

Additional observations from a re-analysis of the deposited data

How the results depend on the processing

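The ESC log2 fold changes of the 6 features kept their direction under all 13 alternatives. These are refits of the libraries that chose the features, so this is a description and not a test. The number of genes called in ESCs, 906 in the fit as reported, was 5 with the replicate block, 31 in the fit of 12 libraries and between 0 and 1 when any 1 library was left out, with 1 without vehicle replicate 2 or Δ9-THC replicate 2. In EpiLCs the count of 0 became 87 with DESeq2 and 411 in the fit of 12 libraries, and was 0 to 0 without 1 library. The cause of these differences was not tested. Replicate numbers tied the libraries together in opposite directions, each correlating lowest with the library of its own number and positively with the others, so they were not treated as pairs that deviate together. With the replicate block 0 genes were called in EpiLCs (291 with an unadjusted p under 0.05). Within numbers the EpiLC share differed by -0.22 percentage points (exact sign-flip p = 0.75) in the replicate block, and the ESC share by 2.21. With so few replicate numbers the sign-flip test cannot reach a p of 0.05, so nothing is concluded from it.

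The ESC difference in summed share was 0.0313 percentage points without ENSMUSG00000119584 and 1.98 to 2.35 without 1 library. The EpiLC difference ran from -1.18 to 0.60 without 1 library and turned positive without vehicle replicate 3 (0.58) or Δ9-THC replicate 3 (0.60). The median r with ENSMUSG00000119584 in EpiLCs was 0.14 and ran from -0.27 to 0.34, turning negative without vehicle replicate 3 (-0.11) or Δ9-THC replicate 3 (-0.27). Without 1 library the EpiLC log2 fold changes ran from -1.11 to 0.48 for ENSMUSG00000119584, -0.30 to 0.027 for Gm15564, -0.0019 to 0.23 for Mir6236, -0.34 to 0.12 for Lars2 and -0.21 to 0.35 for mt-Tp. The sign turned without vehicle or Δ9-THC replicate 3 for ENSMUSG00000119584, Gm15564 and Lars2, without vehicle or Δ9-THC replicate 2 for mt-Tp, and without Δ9-THC replicate 2 for Mir6236. None of the 6 was called in EpiLCs under any alternative run.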
